A study of Rattus norvegicus with 4 samples.

Results

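The annexin family was followed in rat lens capsules carrying lens epithelial cells (LECs) through the first 2 weeks after extracapsular lens extraction (ECLE), the surgery that empties the lens capsule and leaves LECs behind. The members were the probe sets whose only gene symbol in the platform annotation was *Anxa1*, *Anxa2*, *Anxa3*, *Anxa4*, *Anxa5*, *Anxa6*, *Anxa7*, *Anxa9* or *Anxa11*. Probe sets are the array's units of measurement, each built from several probes for one transcript, and 16 of them covered the 9 genes, among 31042 that covered 14217 named genes. Capsules came from female albino Sprague-Dawley rats operated at 7 weeks of age. There was 1 array at day 0, collected once the surgery was complete, 2 arrays at 1 W (7 days, rats 8 weeks old) labeled as biological replicates 1 and 2, and 1 array at 2 W (14 days, rats 9 weeks old). Every array, day 0 included, therefore holds tissue of an operated eye, and the number of eyes or animals behind an array is not stated in the sources used here.

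Annexins are proteins that bind negatively charged membrane phospholipids in a calcium-dependent manner through a conserved core of repeated domains, while their N-terminal ends differ and carry the binding sites for partners. They take part in membrane repair, vesicle traffic, and the organization of the cortical cytoskeleton. Several act outside the cell: *Anxa1* encodes an anti-inflammatory mediator, the *Anxa2* product assembles plasminogen and its activator at the cell surface, and the *Anxa5* product binds the phosphatidylserine exposed by dying cells. Posterior capsule opacification (PCO), the clouding that follows cataract surgery, begins with the wound response of the LECs that remain on the capsule.

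Array medians of the deposited intensities differed by up to 0.84 log2 units, for which reason intensities were divided by the mean of their array before ratios to day 0 were taken on the log2 scale. The 1 W ratio is the mean log2 value of both replicates. The 18625 brighter probe sets, from the 40th percentile of mean level upward, entered limma with day 0, 1 W, and 2 W as groups, p-values adjusted by Benjamini-Hochberg, and 0.05 as the threshold. Its error estimate has 1 residual degree of freedom, from the 1 W pair, so p-values rest on the spread between those 2 arrays, and every ratio to day 0 shares the single day 0 array. Where the 4 arrays are given in a row, their order is day 0, 1 W replicate 1, 1 W replicate 2, 2 W, and errors are standard errors (SE) of the log2 ratio. The median log2 ratio of the tested probe sets was -0.08 at 1 W and -0.26 at 2 W, and annexin values are read against these shifts. Of the 16 annexin probe sets, 11 were tested, and they cover 8 of the 9 genes. No tested probe set of *Anxa9* remained.

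Summed over their measured genes, in multiples of the array mean, the 10 lens epithelium markers gave 218 (day 0), 211 and 203 (1 W), and 215 (2 W), with members on both sides. At 2 W *Cdh1* had a ratio of 0.270. *Foxe3* (0.363 at 2 W) and *Cryab* (1.52 at 2 W) were named after their values were seen. Of the 10, 2 were above day 0 on each array after ECLE and 4 below it (26.6% and 36.4% of all tested genes). The 11 lens fiber markers summed to 198, 219, 193, and 430.2, with members on both sides at 1 W. At an unadjusted limma p under 0.05, 3 of 11 were higher and 3 lower at 1 W (10.4% and 8.92% of all tested genes). At 2 W, 8 of 11 were higher and 0 lower (10.8% and 22%). For 12 macrophage markers the sums were 2.05, 14.4, 10.6, and 7.74. For 12 fibroblast and smooth muscle markers the sums were 21.4, 61.6, 29.0, and 53.7, with members on both sides. Of these 12, 6 were over 2.0-fold on each array after ECLE and 1, *Pdgfra*, was under 0.5-fold on each (2.51% and 1.78% of all tested genes). The 7 pigment cell markers summed to 11.6, 67.3, 24.7, and 36.7, with members on both sides at 2 W. Of these 7, 5 were above day 0 on each array after ECLE and 0 below it (26.6% and 36.4% of all tested genes). *Rlbp1* and *Rpe65*, named after their values were seen, had ratios of 0.445 and 0.864 at 2 W. The sums were 57.1, 5.91, 23.7, and 7.63 for 10 photoreceptor markers. None of the 6 measured neutrophil markers reached the level filter. No marker was listed at an intensity of 0. In such bulk tissue, fewer cells of a type and less RNA per cell cannot be told apart, and the part of these cell types in the annexin ratios was not tested. Beta-actin control probe sets, a sign of RNA quality, had a 3' to 5' ratio of 2.32, 1.89, 1.90, and 1.61, and those of GAPDH 1.16, 1.12, 1.18, and 1.10.

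*Anxa1* and *Anxa2* lay on opposite sides of day 0 after ECLE. *Anxa1*, whose product is released by stressed cells and acts on formyl peptide receptors to limit leukocyte entry, was among the brightest transcripts of the capsule at day 0. Its only probe set (1367614_at) had an intensity of 8321 (day 0), 4096 and 4220 (1 W), and 2874 (2 W). Its rank among the 31042 probe sets was 42, 200, 169, and 255 on the 4 arrays, so day 0 stood above every later array. The ratio to day 0 was 0.571 at 1 W (log2 -0.81 ± 0.12, SE, limma adjusted p = 0.125) and 0.511 at 2 W (log2 -0.97 ± 0.13, SE, adjusted p = 0.0579). Neither passed the threshold. Among the 10455 tested genes, its ratio lay at the 6.02 percentile at 1 W and at the 13.3 percentile at 2 W.

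*Anxa2*, whose product pairs with S100a10 at the plasma membrane, had the opposite pattern. Its brightest probe set (1367584_at) had an intensity of 1317 (day 0), 3613 and 3285 (1 W), and 2990 (2 W). All 3 arrays after ECLE were above day 0, and the 2 replicates at 1 W differed by 0.09 log2 units. The ratio to day 0 was 2.99 at 1 W (log2 1.58 ± 0.12, SE, adjusted p = 0.0828) and 3.36 at 2 W (log2 1.75 ± 0.14, SE, adjusted p = 0.0553). These values did not pass limma with arrays scaled by their mean, whereas with arrays scaled by their median the adjusted p was 0.0133 at 1 W and 0.00928 at 2 W. Its ratio lay at the 97.7 percentile of tested genes at both times. A second, dim probe set (1392250_at) was at 3.23, 6.07, 23.1, and 8.96 and was not tested. RefSeq lists 8 pseudogenes named for *Anxa2* in the rat, and whether either probe set also matches them was not tested.

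The log2 ratio of *Anxa2* minus that of *Anxa1* does not depend on a factor that scales a whole array. It was 2.48 and 2.30 for the 1 W replicates and 2.72 for 2 W, a description that carries no test. The 250 bases before the RefSeq start site of each are shown because these members, by their brightest probe sets, had the highest and the lowest ratios among the tested annexin genes, with motif matches in capitals (GRCr8; *Anxa1* chr1:227303733-227303982, minus strand; *Anxa2* chr8:78986002-78986251, plus strand).
Anxa1: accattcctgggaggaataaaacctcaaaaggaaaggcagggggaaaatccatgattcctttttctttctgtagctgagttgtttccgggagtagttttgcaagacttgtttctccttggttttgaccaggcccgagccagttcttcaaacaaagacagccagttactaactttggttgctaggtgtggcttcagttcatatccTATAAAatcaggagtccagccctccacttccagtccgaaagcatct
Anxa2: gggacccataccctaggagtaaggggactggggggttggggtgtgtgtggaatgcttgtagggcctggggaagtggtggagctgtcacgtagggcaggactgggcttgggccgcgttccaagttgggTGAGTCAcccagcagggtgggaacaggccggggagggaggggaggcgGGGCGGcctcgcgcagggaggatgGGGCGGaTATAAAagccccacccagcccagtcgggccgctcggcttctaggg
Motifs were searched on both strands and were chosen with the sequences in view. The TATA box was searched as the letters TATAAA and the box known by its own letters as CCAAT. The GC box, a site for Sp1 and related factors, was searched as the letters GGGCGG. The site for the AP-1 factors was searched as TGANTCA, where N is any base. No match overlapped another in the windows shown. *Anxa1* held TATAAA with its first base at -46 from the start site and none of the other motifs. The *Anxa2* window held TATAAA at -45, GGGCGG at -76 and -52, and TGANTCA at -123. Among all 33469 promoter windows of this length, 12.9% held TATAAA, 30.5% held GGGCGG, and 6.34% held TGANTCA. Of the 8 annexin windows in the RefSeq table, only those of *Anxa1* and *Anxa2* held TATAAA, and only that of *Anxa2* held TGANTCA. In 4 further windows, those of *Anxa3*, *Anxa4*, *Anxa5*, and *Anxa11*, GGGCGG was found. CCAAT, present in 34% of all windows, was found in those of *Anxa4* and *Anxa7*. The windows of *Anxa1*, *Anxa7*, and *Anxa9* had no GC box, and a match is a string of letters and not a measured binding site.

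**Figure D1:**
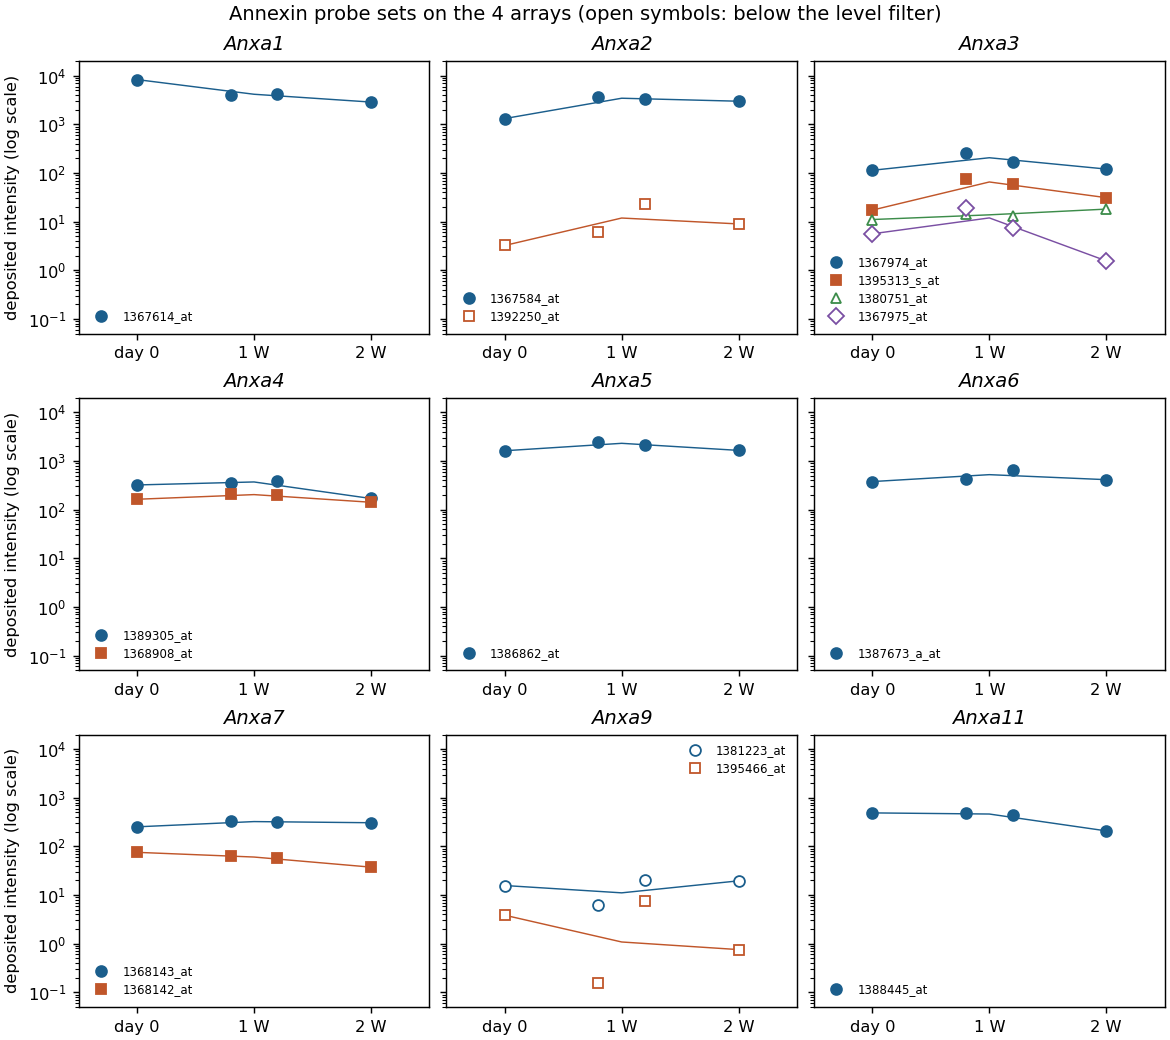
Deposited intensity (vertical axis, log scale) of each annexin probe set by time since ECLE (horizontal axis; day 0, 1 W, 2 W), with 1 symbol per array, replicate 1 at 1 W left of replicate 2, and lines through the geometric mean at 1 W. Open symbols mark the 5 probe sets below the level filter. *Anxa1* is highest at day 0 (8321) and the brighter *Anxa2* probe set is lowest there (1317), while both *Anxa9* probe sets lie at 20.1 or below on every array.

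By their brightest probe sets, the 8 tested annexin genes had log2 medians of 0.61 for 1 W and 0.62 for 2 W, and all tested genes had -0.01 and -0.21. None of the 11 tested annexin probe sets passed limma at 1 W or 2 W, in a table where 0.0483% of 18625 probe sets were called higher at each time and 0% lower. At an unadjusted p under 0.05, 6 of the 11 were higher and 1 lower at 1 W, against 8.21% and 9.66% of all tested probe sets. At 2 W, 4 were higher and 2 lower, against 9.01% and 21.9%. The *Anxa3* probe set 1395313_s_at, counted as higher at both times, lay at the 27.2 percentile at day 0. It reached the level filter through the arrays after ECLE, which favors such a call. By gene, 5 of the 8 tested (*Anxa2*, *Anxa3*, *Anxa5*, *Anxa6*, and *Anxa7*) were above day 0 on each of the 3 arrays after ECLE, compared with 26.6% of 10455 tested genes, and *Anxa1* alone was below day 0 on each, compared with 36.4%. For *Anxa7* this depends on the probe set, as its dimmer tested one was below day 0 on each array. Only *Anxa2* was over 2.0-fold on each array, where 2.51% of tested genes were, and no annexin gene was under 0.5-fold on each, where 1.78% were. More of the annexins than of all genes thus lay above day 0 on each array, a description of these arrays with no test.

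**Figure D2:**
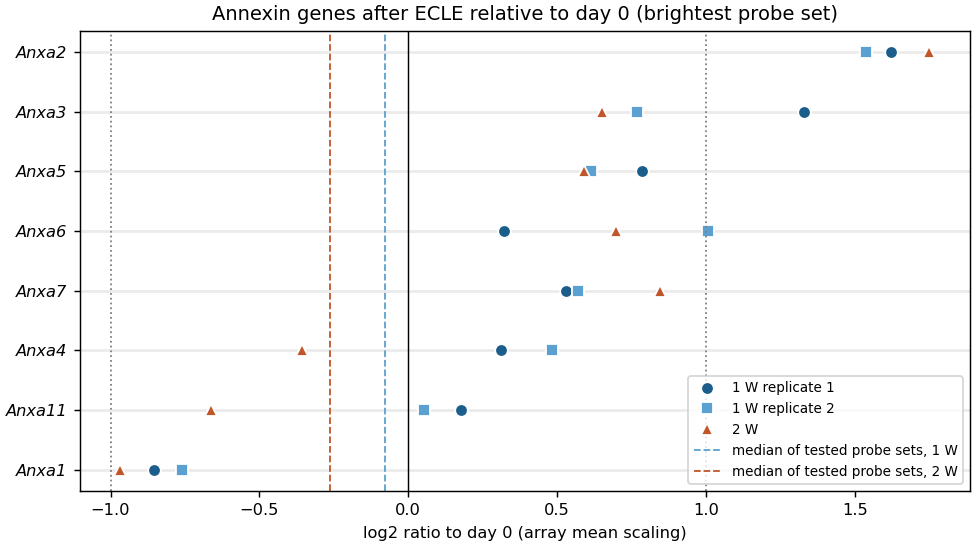
Brightest probe set of each tested annexin gene (rows), with its log2 ratio to day 0 on the horizontal axis. Circles and squares are replicates 1 and 2 of 1 W, and triangles are 2 W. Dotted lines mark 2.0-fold and 0.5-fold, and dashed lines the median of all tested probe sets at 1 W (-0.08) and 2 W (-0.26). *Anxa2* lies beyond 1 on all 3 arrays, *Anxa1* lies between -0.97 and -0.76, and the triangles of *Anxa4* and *Anxa11* lie below 0.

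Among the membrane-binding members other than *Anxa2*, *Anxa5* was bright and close between replicates. It encodes the protein used to stain dying cells. Its intensity was 1631 (day 0), 2505 and 2144 (1 W), and 1659 (2 W). After scaling, the ratio to day 0 was 1.62 at 1 W (log2 0.70 ± 0.14, SE, adjusted p = 0.156) and 1.51 at 2 W (log2 0.59 ± 0.16, SE, adjusted p = 0.105). In deposited intensity 2 W was close to day 0, so the 2 W ratio rests on the scaling, while both 1 W arrays were above the others. *Anxa6*, which encodes the annexin with a duplicated core and is known in endosomal and cholesterol traffic, had intensities of 379 (day 0), 422 and 655 (1 W), and 415 (2 W). Replicate 2 stood above the other arrays, and the replicates differed by 0.69 log2 units, the widest gap among the 8 genes. Its ratio to day 0 was 1.59 at 1 W (adjusted p = 0.362) and 1.62 at 2 W (adjusted p = 0.28).

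*Anxa3*, which encodes an annexin found in phagocyte granules, was second to *Anxa2* at 1 W by the brightest probe set of each gene, with probe sets that differed in size and, at 2 W, in direction. The brightest (1367974_at) had intensities of 114 (day 0), 254 and 166 (1 W), and 120 (2 W). Its ratio was 2.07 at 1 W (log2 1.05 ± 0.30, SE, adjusted p = 0.224) and 1.57 at 2 W (log2 0.65 ± 0.35, SE, adjusted p = 0.277). A dimmer one (1395313_s_at) had intensities of 17.3, 73.5, 58.0, and 31.1 on the 4 arrays. Its ratios were 4.32 at 1 W (adjusted p = 0.144) and 2.67 at 2 W (adjusted p = 0.122), and it was over 2.0-fold on each array, as 2 of the 11 annexin probe sets and 2.05% of all tested were. At 1 W its ratio was above that of the brighter *Anxa2* probe set. This probe set lay at the 27.2 percentile of the day 0 array, so it reached the level filter through the arrays after ECLE. The other *Anxa3* probe sets were below the filter on mean level. One (1380751_at) was at 11.04, 14.4, 13.2, and 18.1. The other (1367975_at) had intensities of 5.62, 19.1, 7.41, and 1.56. Replicate 1 at 1 W was its highest array and 2 W its lowest.

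After scaling, *Anxa4* and *Anxa11* stood above day 0 on both arrays at 1 W and below it at 2 W by their brightest probe sets, and the difference of 2 W from 1 W did not pass limma. *Anxa4* encodes an annexin of epithelial membranes. Its brighter probe set (1389305_at) had intensities of 323 (day 0), 357 and 387 (1 W), and 170 (2 W), so 2 W was lowest. The ratio of 2 W to 1 W was 0.592 (log2 -0.76 ± 0.17, SE, adjusted p = 0.153). The second probe set (1368908_at) had intensities of 164, 207, 202, and 142 and a ratio of 2 W to 1 W of 0.902 (adjusted p = 0.646). At 2 W the first had a ratio to day 0 of 0.78 and the second of 1.29, so the direction for *Anxa4* depends on the probe set. *Anxa11*, whose product binds S100a6 and links RNA granules to lysosomes, had intensities of 489 (day 0), 493 and 436 (1 W), and 209 (2 W). Its ratio of 2 W to 1 W was 0.584 (log2 -0.78 ± 0.15, SE, adjusted p = 0.146), and of 2 W to day 0 it was 0.632 (adjusted p = 0.106). The tested probe sets as a whole had a median log2 ratio of 2 W to 1 W of -0.20. The lens fiber marker sum was highest at 2 W, and its part in the 2 W values of *Anxa4* and *Anxa11* was not tested. In this comparison none of the 11 annexin probe sets passed limma, and none of the 18625 did (0% called in each direction). At an unadjusted p under 0.05, 0 annexin probe sets were higher and 2, those of *Anxa4* and *Anxa11* above, were lower, against 5.5% and 16.4% of all tested.

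*Anxa7*, first named synexin for its aggregation of secretory granules, also had a disagreement between probe sets. The brighter one (1368143_at) had intensities of 253 (day 0), 326 and 323 (1 W), and 307 (2 W). These gave a ratio to day 0 of 1.47 at 1 W (adjusted p = 0.22) and 1.80 at 2 W (log2 0.85 ± 0.18, SE, adjusted p = 0.079). The dimmer one (1368142_at) had intensities of 75.6, 63.5, 57.6, and 37.5. Its ratios to day 0 were 0.915 and 0.736 (adjusted p = 0.824 and 0.403), below day 0 on every array. RefSeq lists 4 pseudogenes named for *Anxa7*, and whether either probe set matches them was not tested.

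*Anxa9*, an annexin whose human counterpart lacks the usual calcium-binding residues, lay in the lower part of the intensity range. One of its 2 probe sets (1381223_at) had intensities of 15.7 (day 0), 6.13 and 20.1 (1 W), and 19.6 (2 W), which are the 25.7, 17.2, 33.6, and 39.5 percentiles of their arrays. The other (1395466_at) had intensities of 3.85, 0.156, 7.51, and 0.756, at the 10.7, 0.113, 17.4, and 2.49 percentiles. On replicate 1 at 1 W both were below day 0 (log2 ratios -1.19 and -4.45), and on replicate 2 both were above it (0.58 and 1.18). At 2 W they had log2 ratios of 0.89 and -1.78. The replicates at 1 W thus differed by 1.77 and 5.64 log2 units, more than either probe set differed between 2 W and day 0, and no detection calls were used here. A change of *Anxa9* was not detectable at this signal.

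The spread between the replicates at 1 W was similar for the tested annexins and for all tested genes. The absolute difference between them had a median of 0.15 log2 units over the 8 tested annexin genes and 0.18 over all tested genes. Of the 8, 0 differed by over 2-fold, and of all tested genes 4.79% did, so a count of 0 is near the general share. The untested *Anxa9* probe sets and the dim *Anxa2* probe set (1.98 log2 units) differed by more. The 8 annexin genes had a median log2 ratio of 0.43 on replicate 1 and 0.59 on replicate 2, whereas the tested macrophage markers had 2.20 and 1.80 and the fibroblast and smooth muscle markers 3.21 and 1.09. Some of these markers reached the level filter through the arrays after ECLE, which raises such medians. Examples are *Fcgr2b* at the 15.7 percentile at day 0 and *Col1a1* at the 34.5 percentile.

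**Figure D3:**
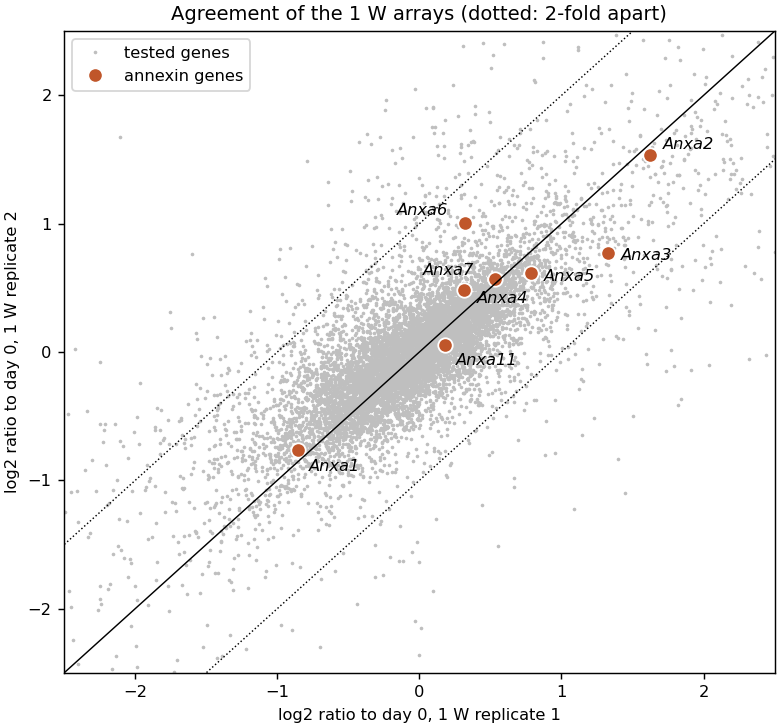
Log2 ratio to day 0 on replicate 1 (horizontal axis) and replicate 2 (vertical axis) at 1 W, with each tested gene as a grey point (those beyond 2.5 are not drawn) and the 8 tested annexin genes in orange. The solid line marks equal ratios and the dotted lines a 2-fold difference. All 8 annexins lie between the dotted lines, with *Anxa6* and *Anxa3* farthest from the solid line on opposite sides.

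Which genes had ratios most like those of *Anxa2*, the only member over 2.0-fold on each array, was measured by the Euclidean distance between the 3 log2 ratios to day 0, over 10446 genes that are not annexins. With so few arrays many genes lie close. *Crabp2*, a carrier of retinoic acid, was nearest (distance 0.092), with intensities of 36.1 (day 0), 98.3 and 84.6 (1 W), and 81.3 (2 W). *A2m*, a broad protease inhibitor, followed (distance 0.117), with intensities of 765, 1944, 1945, and 1700. *Fbn2*, a microfibril protein, was next (distance 0.172), with intensities of 14.9, 39.0, 41.1, and 35.5. At day 0 *Fbn2* was below the brighter *Anxa9* probe set (15.7, the 25.7 percentile). It therefore reached the level filter through the arrays after ECLE.

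Among the proteins that bind annexins or carry their signals, *S100a6* and *Plau* were over 2.0-fold on each array after ECLE. A list of 19 partners and receptors had 14 genes with a probe set and 12 tested, of which none passed limma. At an unadjusted p under 0.05, 5 were higher at 1 W (10.4% of all tested genes) and 6 at 2 W (10.8%), and none was lower (8.92% and 22% of all). *S100a6*, the calcium-binding partner of the *Anxa11* product, had intensities of 724 (day 0), 2823 and 3447 (1 W), and 4990 (2 W). Its ratio to day 0 was 4.92 at 1 W (adjusted p = 0.0828) and 10.2 at 2 W (adjusted p = 0.0553), whereas *Anxa11* had 1.08 and 0.632. *Plau*, the urokinase that activates plasminogen, was at 23.1 (day 0), 128 and 175 (1 W), and 37.4 (2 W). Its ratio was 7.39 at 1 W (adjusted p = 0.105) and 2.40 at 2 W (adjusted p = 0.127). It lay at the 32.6 percentile at day 0, so it too reached the level filter through the arrays after ECLE. *S100a10* and *S100a11*, which pair with the products of *Anxa2* and *Anxa1*, were named after their values were seen. *S100a10* had intensities of 2287 (day 0), 2247 and 2640 (1 W), and 2699 (2 W), with ratios of 1.22 and 1.75 (adjusted p = 0.42 and 0.0912). *S100a11* had ratios of 1.55 and 1.46 (adjusted p = 0.202 and 0.148). Over the list, the median log2 ratio was 0.49 for 1 W and 0.43 for 2 W. Formyl peptide receptor genes had no probe set with that symbol alone and were not analysed here.

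**Figure D4:**
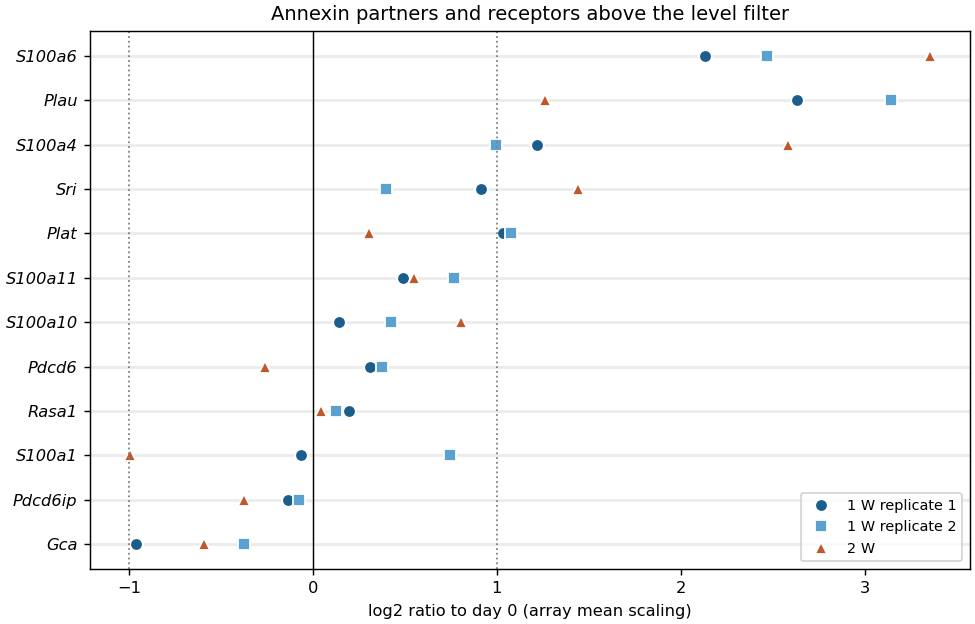
The 12 tested annexin partners and receptors (rows), with the log2 ratio to day 0 on the horizontal axis. Circles and squares are replicates 1 and 2 of 1 W and triangles are 2 W, with dotted lines at 2.0-fold and 0.5-fold. *S100a6* has its highest point at 2 W (3.35) and *Plau* at 1 W (3.14 on replicate 2).

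Genes of membrane repair and caveolae, processes in which annexins seal torn membranes with ferlins, had 15 of 20 genes tested. None passed limma, and at an unadjusted p under 0.05, 1 W had 5 higher and 0 lower (10.4% and 8.92% of all tested genes) and 2 W had 6 higher and 1 lower (10.8% and 22%). *Myof*, a ferlin of membrane fusion, had intensities of 66.1 (day 0), 208 and 295 (1 W), and 96.3 (2 W), with ratios of 4.28 and 2.16 (adjusted p = 0.125 and 0.132). *Cav1*, the coat protein of caveolae, had ratios of 3.23 and 3.03 (adjusted p = 0.156 and 0.0922). Over the list, the median was 0.38 for 1 W and 0.50 for 2 W on the log2 scale. Genes of phosphatidylserine exposure and clearance, which act on the lipid that the *Anxa5* product binds, had 15 of 22 genes tested and log2 medians of -0.21 for 1 W and -0.59 for 2 W. Of these 15, at an unadjusted p under 0.05, 1 W had 1 higher and 3 lower and 2 W had 2 higher and 6 lower, against the same shares of all tested genes, and none passed limma. *Axl*, a receptor for phosphatidylserine through its ligand Gas6, was the only one over 2.0-fold on each array, where 2.51% of all tested genes were. It had intensities of 102 (day 0), 303 and 345 (1 W), and 200 (2 W). Its ratio was 3.63 at 1 W (adjusted p = 0.101) and 2.90 at 2 W (adjusted p = 0.0602). *Gas6*, named after its values were seen, went the other way, with ratios of 0.686 and 0.468 (adjusted p = 0.262 and 0.0738).

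Which annexins passed limma depended on the scaling of the arrays. With arrays scaled by their median, *Anxa2* passed at 1 W and 2 W, and *Anxa7* at 2 W (log2 ratio 1.12, adjusted p = 0.0341). Over all probe sets, this setting called 260 as higher and 146 as lower for 1 W, and for 2 W 948 and 683. With the values as deposited, whose median log2 ratio at 2 W is -0.83, *Anxa2* again passed at both times (log2 ratios 1.39 and 1.18), and *Anxa1*, *Anxa4*, and *Anxa11* passed as lower at 2 W. That setting called 41% of all 18625 probe sets lower and 1.85% higher at 2 W, so 3 of 8 lower is near the general share. In each of the 5 scalings compared, *Anxa2* was above day 0 and *Anxa1* below it at both times, while *Anxa11* at 1 W was above day 0 in 4 and below it as deposited.

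**Figure D5:**
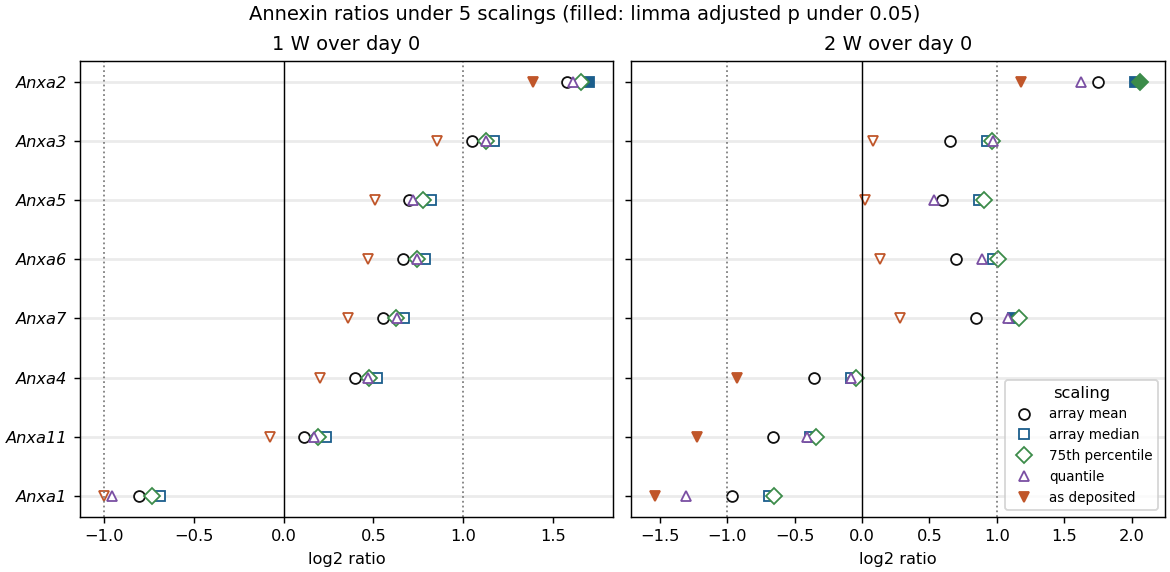
Log2 ratio of 1 W to day 0 (left) and 2 W to day 0 (right) of the 8 tested annexin genes under 5 ways of scaling the arrays, with filled symbols where limma's adjusted p was under 0.05. *Anxa2* lies between 1.39 and 1.70 at 1 W in all 5, and the values as deposited (downward triangles) lie lowest at 2 W for each gene.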

How the data were processed

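RNA of lens capsules with LECs was labeled and hybridized to the Affymetrix rat genome array. The authors made probe set values with Command Console and Expression Console and deposited 1 linear intensity per probe set for 4 arrays. The summary algorithm was not given in the sources used here. The authors describe scaling each chip by control values or by its average intensity. Whether the deposited values were so scaled is not stated. Detection calls were not used, so how far dim probe sets stand above background is unknown and the number of arrays limits the precision. The 57 control probe sets were left out. Arrays were divided by their mean, as the array medians differed by more than 0.5 log2 units, and log2 was taken. The two-sided limma test (version 3.58.1, R 4.3.3, eBayes with a trend on mean level, 3 groups) used the 18625 probe sets from the 40th percentile of mean level upward, with 1 residual and 3.12 prior degrees of freedom. It was run on simulated data in which all 4 arrays had the spread seen between the 1 W replicates. That run could not check the unknown spread of the single arrays at day 0 and 2 W. Symbols were matched to RefSeq (GRCr8) by gene ID for 20758 of 20826 probe sets with a single symbol. The brightest probe set on average stands for a gene. Named genes were all members, up to 3 genes in each direction of each list that met a fold rule (over 2.0 or under 0.5) on each array after ECLE or, where none did, its 2 brightest, and the 3 genes nearest to a member that met a fold rule on each array. Where other genes are named, the text says so. Members and lists were chosen with earlier results of these data known. Compared settings were the scaling, a floor at the 20th percentile, the level filter (none, or the 60th percentile), limma fitted without its trend or robustly, arrays after ECLE as 1 group, the mean of a gene's probe sets, a linear mean at 1 W, and leaving out a 1 W replicate. Using the second brightest probe set was added after the data were seen. Promoter sequences are from RefSeq, where 8 of 9 members matched. Other software was Python 3.11.15 with numpy 2.4.6, pandas 2.3.3, and matplotlib 3.10.9.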

Additional observations from a re-analysis of the deposited data

Results flagged for a closer look

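For 3 annexin probe sets both arrays at 1 W were above day 0 and the array at 2 W was below it. The brightest probe set of *Anxa4* had a log2 ratio to day 0 of -0.36 at 2 W, and 0.31 and 0.48 on replicates 1 and 2 at 1 W. *Anxa11* had -0.66 at 2 W, and 0.18 and 0.05 at 1 W. The limma comparison of 2 W with 1 W did not pass for either (adjusted p = 0.153 and 0.146). The dimmest *Anxa3* probe set (1367975_at) had -1.28 at 2 W, and 1.94 and 0.62 at 1 W, and for it the difference was not tested because it was below the level filter. Relative to the median of all tested probe sets, the 2 W values of *Anxa4* and *Anxa11* were -0.09 and -0.40. No group had enough arrays to test for an array that stands apart.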

How the results depend on the processing

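Annexin log2 ratios were recomputed under up to 14 settings, those that apply to each comparison and gene, and, as an addition after the data were seen, with the second brightest probe set where a gene has one. With 1 array at day 0 and at 2 W, leaving out a 1 W replicate leaves limma no residual degrees of freedom, so those values carry no test. No paired analysis was possible because day 0 and 2 W have a single array each. The count of annexin genes passing limma at 1 W was 0 higher and became 1 with median scaling and 1 as deposited. In these settings 1.40% and 0.467% of all probe sets were called higher at 1 W. At 2 W it was 0 higher and became 2 with median scaling, 1 with 75th percentile scaling (*Anxa2*, adjusted p = 0.0486), and 1 as deposited. The shares of all probe sets called higher there were 5.09%, 1.48%, and 1.85%. The count of 0 lower at 2 W became 3 as deposited, where 41% of all probe sets were called lower. For 2 W over 1 W, 0 lower became 2 as deposited (*Anxa4* and *Anxa11*, adjusted p = 0.0313 each), where 22.7% of all were. Without the trend, limma called no probe set at all. The median log2 ratio of the annexin genes, 0.61 at 1 W, became 0.73 with median scaling and 0.42 as deposited, and ranged from 0.43 to 0.59 with a 1 W replicate left out. The median of 0.62 at 2 W became 0.89 with median scaling, 0.94 with 75th percentile scaling, 0.054 as deposited, and 0.36 with the mean of all probe sets of a gene. Counts of genes on one side of day 0 or past a fold rule on each array stayed within 1.5 times in all settings run. Single log2 ratios that changed sign were the following. For 2 W over 1 W, *Anxa1* became 0.080 and *Anxa5* 0.13 with 75th percentile scaling, *Anxa5* became 0.044 with median scaling, *Anxa2*, *Anxa6*, and *Anxa7* became -0.20, -0.34, and -0.079 as deposited, *Anxa6* became -0.31 without replicate 1 (0.37 without replicate 2) and -0.0087 with a linear mean, and *Anxa7* became -0.010 with the mean of its probe sets. *Anxa4* at 2 W became 0.15 with the arrays after ECLE as 1 group and 0.0018 with the mean of its probe sets. *Anxa11* at 1 W became -0.077 as deposited and -0.14 with 1 group. With the second brightest probe set, *Anxa2* for 2 W over 1 W became -0.029, *Anxa4* at 2 W became 0.36, and *Anxa7* became -0.13 at 1 W, -0.44 at 2 W, and -0.31 for 2 W over 1 W. The cause of these changes was not tested. The median log2 ratio of all tested probe sets at 2 W was -0.83 as deposited and 0.01 with median scaling.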

Other observations

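*Anxa8*, an annexin outside the members, had intensities of 197 (day 0), 183 and 162 (1 W), and 183 (2 W), and the log2 ratio was 0.06 and -0.06 for the 1 W replicates and 0.46 for 2 W (adjusted p = 0.223 from limma). *Anxa10* and *Anxa13* had no probe set with that symbol alone and were not analysed here.

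The *Anxa1* product was first described as an inhibitor of phospholipase A2 that glucocorticoids induce. Of 12 genes of phospholipase A2 and eicosanoid synthesis, 9 were tested, none passed limma, and the log2 medians were 0.65 for 1 W and 0.60 for 2 W. At an unadjusted p under 0.05, 1 W had 4 higher and 0 lower and 2 W had 2 higher and 1 lower (of all tested genes, 10.4% and 8.92% at 1 W, and 10.8% and 22% at 2 W). *Pla2g4a*, the cytosolic phospholipase A2, had intensities of 82.5 (day 0), 256 and 235 (1 W), and 188 (2 W). Its ratio to day 0 was 3.40 at 1 W (adjusted p = 0.0998) and 3.38 at 2 W (adjusted p = 0.0574). *Ptgs2*, the inducible cyclooxygenase, was over 2.0-fold on each array as well, but lay at the 27.0 percentile at day 0 and reached the level filter through the arrays after ECLE. *Alox5ap* and *Ptgs1*, named after their values were seen, did so too (27.9 and 31.8 percentiles at day 0). The filter thus favored higher values in the medians and counts of this list. Of 9 glucocorticoid response genes, 7 were tested and none passed limma, and the log2 medians were -0.06 for 1 W and -0.55 for 2 W. At an unadjusted p under 0.05, 1 W had 0 higher and 1 lower and 2 W had 0 higher and 3 lower, against the same shares of all tested genes. None of the 7 tested met a fold rule on each array. Of the 2 brightest, *Tsc22d3*, a glucocorticoid-induced leucine zipper protein, had ratios of 1.04 at 1 W and 0.892 at 2 W (adjusted p = 0.822 and 0.461), and *Sgk1*, a serum- and glucocorticoid-induced kinase, had 0.96 and 0.603 (adjusted p = 0.82 and 0.075).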
